A study of Danio rerio with 4 samples.

Results

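Apolipoproteins are the protein parts of lipoprotein particles, and their transcripts were examined on 16 array probe sets of 14 genes. The probe sets were those with exactly 1 annotated gene symbol beginning with apoa, apob, apoc, apod, apoe or apoh, with apobec genes left out. They were 16 of the 15502 probe sets tested, and 14 of the 8793 genes named by 1 symbol, and none began with apoh. The RefSeq gene table of the GRCz12tu assembly lists 18 protein-coding zebrafish genes under these names, so apoa1b, apoa4b.3, apobb.2 and apoda.1 were not analysed here under their own symbols.

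The samples were whole zebrafish larvae at 120 hours post fertilization, 2 labelled as uhrf1 mutant (mutant 1 and mutant 2) and 2 labelled as wildtype (wildtype 1 and wildtype 3). The labels' growth protocol names progeny of heterozygous carriers of the uhrf1 hi272 allele, an insertional mutation. It also names a line with the transgene Tg(fabp10:hUHRF1-GFP), in which a hepatocyte promoter drives human UHRF1, but the labels of the 4 arrays name no transgene. UHRF1 brings the maintenance DNA methyltransferase to newly replicated DNA. The labels give the 2 groups as phenotypes, so whether the wildtype larvae include heterozygous carriers is not known here. Whether larvae were pooled, and whether replicates are separate clutches, is not in the labels. The p-values therefore reflect no more than the variation among these 4 samples, and this may be technical.

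Apolipoprotein B is the large, non-exchangeable scaffold of chylomicrons and very low density lipoprotein. The A, C and E proteins contain amphipathic helices and move between particles, and among them are activators or inhibitors of lipases and ligands of receptors. Apolipoprotein D is unlike them in fold, a lipocalin that carries small hydrophobic ligands. In larval zebrafish the yolk syncytial layer, the liver and the intestine make lipoproteins, from yolk lipid first and from dietary lipid later.

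Values are the authors' RMA intensities, which are background-corrected, quantile-normalized and summarised per probe set, and they are given on the linear scale. Each log2 change is the mutant mean minus the wildtype mean of log2(intensity + 1), given with limma's moderated standard error, and a probe set was called at a Benjamini-Hochberg adjusted p under 0.05 over all 15502 probe sets. Brightness depends on the probes, so levels were compared between arrays and not between probe sets. Of the 16 probe sets, 12 lay among the brightest 10% of the array, and whether changes are compressed there was not tested.

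The 4 arrays had median intensities between 29.4 and 31.5. The 18 hybridisation control probe sets, which measure transcripts added in fixed amounts, had a mean log2 value 0.49 lower on the mutant arrays, so each change is relative to the bulk of the array. Over all probe sets the median log2 change was -0.04, and with arrays scaled on these controls it was 0.45. The uhrf1 transcript read 41.1 and 26.3 in mutants and 47.4 and 41.5 in wildtype larvae on its brighter probe set, which is a log2 change of -0.42 ± 0.23 (SE, limma adjusted p 0.56). Its dimmer probe set read 8.972 and 9.496 in mutants and 9.909 and 9.185 in wildtype larvae. The groups overlapped there, with a log2 change of -0.04 ± 0.13 (SE). The position of the uhrf1 probes against the mutation is not known here, so these levels do not check the labels.

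By limma, 2 of the 16 apolipoprotein probe sets fell in uhrf1 mutants, those of apoda.2 and one of the pair for apoa4b.2, and none rose. Of all probe sets 1.50% were called, 0.658% as lower and 0.845% as higher. Without adjustment, 6 apolipoprotein probe sets had a limma p under 0.05, 4 with higher and 2 with lower values, against a background of 11.9% of all probe sets. The 16 log2 changes ran from -3.32 to 0.89 around a median of -0.01, against a median of -0.04 for all probe sets. Their median size without sign was 0.60, against 0.14 for all probe sets and 0.22 for the brightest 10%. The probe sets of the family thus lay on both sides of 0, with 8 values above and 8 below, though their median was 0.48 when scaled on the hybridisation controls, against the 0.45 of all.

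**Figure D1:**
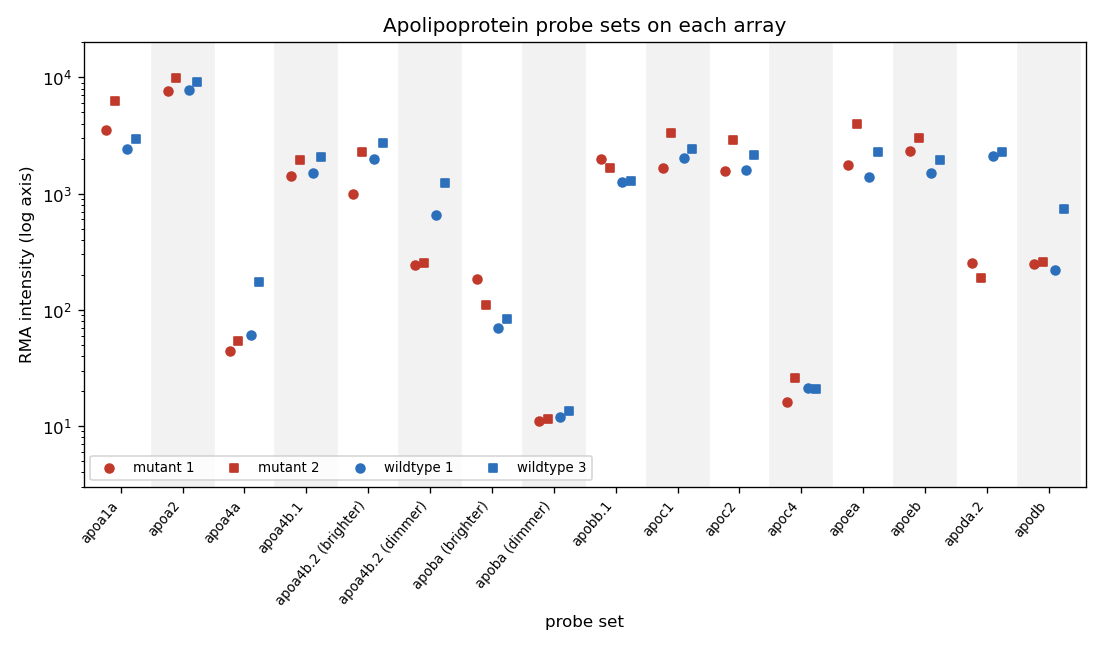
RMA intensity (log axis) of the 16 apolipoprotein probe sets on each of the 4 arrays, with mutant arrays in red left of wildtype arrays in blue. For apoda.2 the mutant points at 252 and 189 lie far under the wildtype points at 2088 and 2280, while for most other probe sets the groups lie close together or overlap.

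The largest difference was in apoda.2, one of the zebrafish genes for the lipocalin apolipoprotein D. It read 252 in mutant 1 and 189 in mutant 2, against 2088 in wildtype 1 and 2280 in wildtype 3. Both mutant arrays lay far below both wildtype arrays, and the gap between the groups was many times the spread within either. The means were 221 ± 44.2 in mutants and 2184 ± 136 in wildtype larvae (SD, n = 2 each), a ratio of mutant over wildtype of 0.101. The log2 change was -3.32 ± 0.18 (SE), with a 95% interval from -3.75 to -2.88 and a limma adjusted p of 0.0008. It was the 15th lowest log2 change of the 15502 probe sets. The call was kept in all 11 alternatives run for it, with log2 changes from -3.52 to -2.83. Among these, the looser threshold of 0.10 could not lose a call.

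In the GRCz12tu gene table the neighbouring paralogue apoda.1 lies within the span of apoda.2, and whether the probes tell the transcripts of these genes apart was not tested. The other D-type gene, apodb, did not pass. It read 247 and 257 in mutants, against 222 in wildtype 1 and 745 in wildtype 3, so that the mutant arrays lay between the wildtype arrays. Its log2 change was -0.69 ± 0.52 (SE), with a 95% interval from -1.95 to 0.58 and a limma adjusted p of 0.70. The wildtype array left in decided this value: the log2 change was -1.56 without wildtype 1 and 0.18 without wildtype 3. Each of these fits leaves 1 wildtype array, so the wildtype spread is not measured in them. The intervals of apoda.2 and apodb do not overlap, though the difference between the changes was not tested.

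The 3 probe sets of other genes whose pattern over the 4 arrays was most like that of apoda.2 were those of scinla, cpa1 and cpb1. Likeness was the Euclidean distance of log2 values centred on each probe set's mean, which came to 0.165, 0.182 and 0.236. Gene scinla encodes a gelsolin-family protein that severs actin filaments. It read 61.6 and 45.2 in mutants, against 501 and 632 in wildtype larvae. The genes cpa1 and cpb1 encode digestive carboxypeptidases of the exocrine pancreas, and cpa1 read 22.7 and 18.1 in mutants and 196 and 249 in wildtype larvae. With 4 arrays in 2 groups, any probe set with a fall of this size and little spread within the groups comes out as alike.

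Most measured markers of the exocrine pancreas were lower on the mutant arrays as well. Their list was added with this likeness known and contains cpa1 and cpb1, which were picked by it. Of its 16 measured genes 14 fell, cpa1 and cpb1 among them, and none rose. The median log2 change of the list was -3.31 against -0.04 for all probe sets. Its summed intensity was 3726 and 3604 in mutants and 29480 and 38980 in wildtype larvae. The amylase gene amy2a read 49.3 and 37.7 in mutants and 1546 and 1454 in wildtype larvae. The acinar transcription factor gene ptf1a did not pass, at 16.2 on both mutant arrays and 20.5 and 21.0 on the wildtype arrays. The part of these cells in the apoda.2 result was not tested, and in whole larvae fewer cells of a type and less RNA per cell cannot be told apart.

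**Figure D2:**
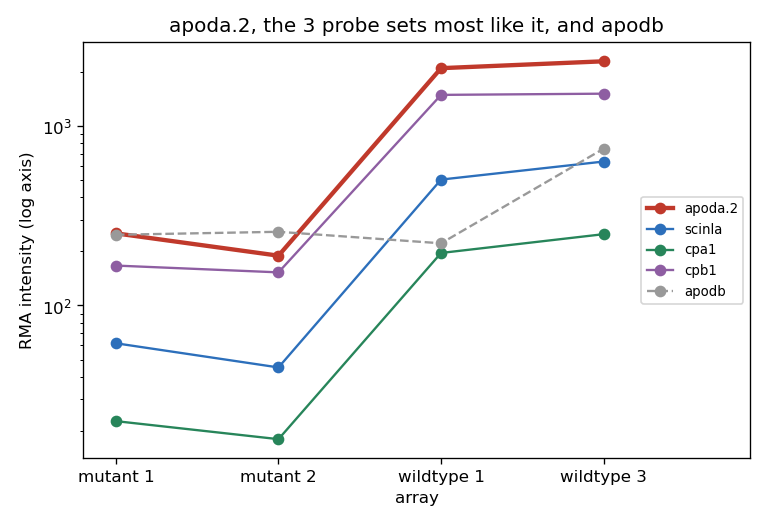
RMA intensity (log axis) of apoda.2, of the 3 probe sets most like it and of the other D-type gene apodb on the 4 arrays, each line joining the values of 1 probe set. The lines of apoda.2, scinla, cpa1 and cpb1 run nearly parallel and are low on both mutant arrays, while apodb (dashed) is high on wildtype 3 alone, at 745.

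The A-IV type genes apoa4a, apoa4b.1 and apoa4b.2 had log2 changes below 0 on each of their 4 probe sets, except that apoa4b.1 changed sign in 4 of its 11 alternatives (0.40 when scaled on the hybridisation controls), and 1 of the 4 passed. In mammals apolipoprotein A-IV is made by enterocytes and leaves them on chylomicrons. The called probe set of apoa4b.2 read 243 in mutant 1 and 251 in mutant 2, against 658 in wildtype 1 and 1225 in wildtype 3. The mutant arrays were close to each other and both lay below the wildtype arrays, which differed from each other by 0.90 on the log2 scale. The means were 247 ± 5.77 in mutants and 942 ± 401 in wildtype larvae (SD, n = 2 each), and the log2 change was -1.86 ± 0.29 (SE, limma adjusted p 0.045).

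The other, brighter probe set of apoa4b.2 did not pass. Its name ends in _a_at, which Affymetrix gave to probe sets that match several transcripts of a gene. It read 997 and 2287 in mutants and 1992 and 2727 in wildtype larvae, with mutant 2 above wildtype 1. The log2 change was -0.63 ± 0.39 (SE), with a 95% interval from -1.58 to 0.33 that overlaps the -2.56 to -1.16 of the called probe set. The mean of both probe sets gave apoa4b.2 a log2 change of -1.24 and a limma adjusted p of 0.079, so by gene only apoda.2 was called. The call of the dimmer apoa4b.2 probe set was also lost without mutant 1 and without mutant 2, in fits that leave 1 mutant array. It was lost too with quantile normalization, with median centring and with a pseudocount of 16, at limma adjusted p-values of 0.060, 0.068 and 0.17. The log2 change of this probe set stayed between -2.31 and -1.37 over its 11 alternatives.

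For apoa4a the intensities were 44.2 and 54.4 in mutants, against 60.5 in wildtype 1 and 172 in wildtype 3. Both mutant arrays were lower than both wildtype arrays, but wildtype 1 lay near the mutants. The log2 change was -1.05 ± 0.46 (SE, limma adjusted p 0.45). It was -1.79 without wildtype 1 and -0.30 without wildtype 3, in fits that leave 1 wildtype array. The third gene, apoa4b.1, read 1413 and 1954 in mutants and 1507 and 2074 in wildtype larvae. The arrays of the groups alternate in level, and its log2 change was -0.09 ± 0.23 (SE), with a 95% interval from -0.65 to 0.47.

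Enterocyte markers were lower on the mutant arrays as well. Among 8 measured genes 3 fell and none rose, while 5 were not called. Each of the 8 had both mutant arrays below both wildtype arrays, and the median log2 change was -1.27. That order, both mutant arrays below, was found for 26.3% of all probe sets. The enterocyte list, like the other lists, was chosen with earlier results of these data known. The summed enterocyte intensity was 1208 and 1948 in mutants and 6104 and 6355 in wildtype larvae. The called genes were fabp2 and fabp6, which bind fatty acids and bile acids, and the protease gene mep1a.1, with log2 changes of -2.53, -1.80 and -1.26. The bile acid transporter gene slc10a2 did not pass, at 54.8 and 119 in mutants and 133 and 195 in wildtype larvae. With a pseudocount of 16 none of the 8 passed, and 5 fell when wildtype 3 was left out, when dim probe sets were left out and with an intensity-dependent robust prior. The part of enterocytes in the A-IV values was not tested.

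Among the high density lipoprotein proteins, apoa1a, whose product activates the cholesterol-esterifying enzyme LCAT in mammals, read 3508 in mutant 1 and 6315 in mutant 2, against 2425 in wildtype 1 and 2932 in wildtype 3. Both mutant arrays were above both wildtype arrays, yet the mutant arrays differed from each other by 0.85 on the log2 scale, about as much as the groups. The log2 change was 0.82 ± 0.29 (SE), with a limma adjusted p of 0.33. It was 1.24 without mutant 1 and 0.40 without mutant 2. The second of these genes, apoa2, read 7598 and 9842 in mutants and 7846 and 9167 in wildtype larvae. Its groups overlapped, with a log2 change of 0.03 ± 0.18 (SE) and a 95% interval from -0.41 to 0.47.

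Both apob genes with a readable signal had higher values in mutants without passing the test. The brighter apoba probe set read 186 in mutant 1 and 109 in mutant 2, against 69.4 in wildtype 1 and 83.8 in wildtype 3. Both mutant arrays lay above both wildtype arrays, and the log2 change of 0.89 ± 0.27 (SE) had a limma adjusted p of 0.25. For apobb.1 the values were 1988 and 1649 in mutants and 1248 and 1279 in wildtype larvae. The groups were apart and the spread was small, with a log2 change of 0.52 ± 0.15 (SE), a 95% interval from 0.15 to 0.89 and a limma adjusted p of 0.23. The other apoba probe set read between 11.0 and 13.4 on the 4 arrays, and its mean was under 12.7, the upper bound of the dimmest 25% of the array. It gave a log2 change of -0.16 ± 0.14 (SE), opposite in sign to the brighter one.

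The 3 probe sets of other genes most like the brighter apoba probe set, which had the highest log2 change of the family, were those of the scaffold protein gene ahnak, of uacab and of the replicative helicase gene mcm3. Their distances were 0.0884, 0.188 and 0.200, and their log2 changes of 0.88, 0.91 and 0.89 had limma adjusted p-values of 0.20, 0.27 and 0.25. Like apoba, each was highest on mutant 1, and ahnak read 632 and 402 in mutants and 255 and 295 in wildtype larvae. They were picked for their likeness to apoba on these same arrays, so the shared order and size follow from the choice.

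The E-type genes encode ligands of the lipoprotein receptors. The probe set of apoeb read 2322 in mutant 1 and 3007 in mutant 2, against 1509 in wildtype 1 and 1949 in wildtype 3. Both mutant arrays were above both wildtype arrays, with a log2 change of 0.62 ± 0.20 (SE), a 95% interval from 0.14 to 1.11 and a limma adjusted p of 0.28. Its paralogue apoea read 1774 and 3947 in mutants and 1378 and 2300 in wildtype larvae. Here mutant 1 lay below wildtype 3, and the log2 change of 0.57 ± 0.41 (SE) was 1.15 without mutant 1 and 0.00 without mutant 2.

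In fish apoeb is also expressed by microglia, and the macrophage and microglia markers did not move together. Among 10 measured genes 1 fell and none rose, 9 were not called, and the median log2 change was -0.02. The called gene was the chemokine gene ccl34b.1, which read 15.0 and 14.5 in mutants and 132 and 146 in wildtype larvae. The cathepsin gene ctss2.1 had values in the opposite order, at 80.8 and 140 in mutants and 43.9 and 30.3 in wildtype larvae. Its log2 change of 1.52 ± 0.30 (SE) had a limma adjusted p of 0.089. It was called higher without dim probe sets, with the robust prior and with scaling on the hybridisation controls, at limma adjusted p-values of 0.039, 0.018 and 0.019. The fits without mutant 1 and without wildtype 1, which leave 1 array in a group, also called it, at log2 changes of 1.91 and 1.78. The receptor gene csf1ra read between 8.96 and 10.7 on the 4 arrays, in the dimmest 25%. The summed intensity of the list was 336 and 463 in mutants and 482 and 468 in wildtype larvae.

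The C-type genes encode small proteins that regulate lipases, with apolipoprotein C-II the cofactor of lipoprotein lipase. For apoc2 the intensities were 1552 in mutant 1 and 2888 in mutant 2, against 1596 in wildtype 1 and 2135 in wildtype 3, and for apoc1 they were 1665 and 3310 in mutants and 2010 and 2398 in wildtype larvae. For both genes mutant 1 was the lowest array and mutant 2 the highest. The log2 change was 0.20 ± 0.31 (SE) for apoc2, with a 95% interval from -0.56 to 0.96, and 0.10 ± 0.32 (SE) for apoc1, with a 95% interval from -0.69 to 0.88. The probe set of apoc4 read 16.1 and 26.0 in mutants and 21.1 on both wildtype arrays, with a log2 change of -0.04 ± 0.23 (SE).

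**Figure D3:**
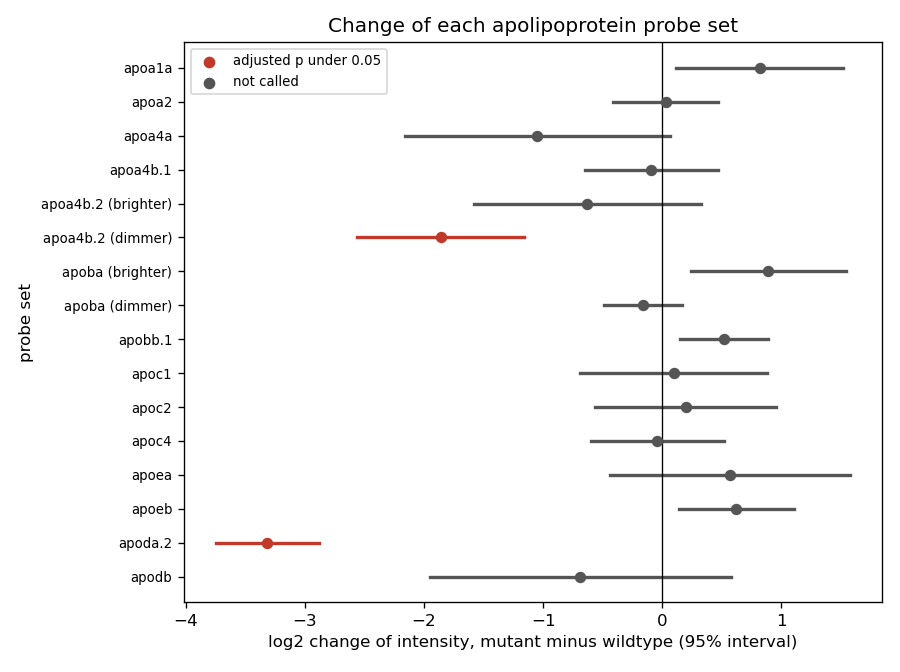
Log2 change of intensity (mutant minus wildtype, dots) of each apolipoprotein probe set with its 95% interval from the limma fit (lines), called probe sets in red. Those of apoda.2 and of the dimmer apoa4b.2 probe set were called, at -3.32 and -1.86, and the intervals of apoa1a, the brighter apoba probe set, apobb.1 and apoeb lie above 0 without an adjusted p under 0.05.

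The groups did not overlap on 8 of the 16 probe sets, as on 41.3% of all probe sets. Of the 8, 4 had both mutant arrays above both wildtype arrays and 4 had both below. The first were apoa1a, apoba (brighter), apobb.1 and apoeb, and the second apoa4a, apoa4b.2 (dimmer), apoba (dimmer) and apoda.2. Of all probe sets 14.9% were in the first order and 26.3% in the second. With arrays scaled on the hybridisation controls, 5127 of all 15502 probe sets were called higher and 96 lower. Of these calls 98.2% were higher, against 56.2% as deposited. The 4 apolipoprotein probe sets of the first order, out of 16 in the family, were called higher under this scaling. Under that scaling apoda.2 and the dimmer apoa4b.2 probe set still fell, at -2.83 and -1.37 on the log2 scale.

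Replicates of a group also differed in apolipoprotein level. The median size of the log2 difference between the mutant arrays was 0.44 in the family and 0.17 over all probe sets, and between the wildtype arrays it was 0.32 and 0.16. Mutant 2 exceeded mutant 1 on 13 of 16 apolipoprotein probe sets and on 55.3% of all, and wildtype 3 exceeded wildtype 1 on 15 of 16 and on 42.0% of all. With its sign, the median log2 difference of mutant 2 minus mutant 1 was 0.37 in the family and 0.03 over all probe sets. For wildtype 3 minus wildtype 1 it was 0.32 in the family and -0.04 over all. The exceptions among mutants were apoba (brighter), apobb.1 and apoda.2, which were higher on mutant 1, and among wildtype larvae apoc4, which differed by -0.01. As a result the family's median log2 change was 0.25 without mutant 1 and -0.29 without mutant 2.

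The summed intensity of hepatocyte markers differed between replicates in the same order, at 9245 in mutant 1 and 13840 in mutant 2, against 13530 in wildtype 1 and 15710 in wildtype 3. The sums of the enterocyte, yolk syncytial layer, glial and carrier lists were in this order as well, and those of the remaining lists were not. By gene, mutant 2 exceeded mutant 1 for 16 of the 17 hepatocyte markers and wildtype 3 exceeded wildtype 1 for 13. The exceptions among wildtype larvae were hgd, fgg, agxta and hpxa. Among 17 measured genes 5 fell and 2 rose, 10 were not called, and the median log2 change was -0.26. The 4 called genes with the smallest p were hpda and hgd, which break down tyrosine, the urate oxidase gene uox, and the fibrinogen gene fgg, with log2 changes of -1.71, -1.56, -2.55 and 1.65. With a pseudocount of 16, 1 hepatocyte gene fell and none rose. The balance of these calls rested on single arrays: without mutant 1, 2 fell and 4 rose, and without wildtype 3, 4 fell and 4 rose. The summed intensity of the 14 apolipoprotein genes, each by its brightest probe set, was 23560 in mutant 1 and 35830 in mutant 2, against 23970 in wildtype 1 and 30260 in wildtype 3. In all such sums the brightest probe sets weigh most, apoa2 alone reading between 7598 and 9842 on the 4 arrays. The part of hepatocyte number or content in the family's values was not tested.

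Of 6 measured markers of the yolk syncytial layer, 2 were in the dimmest 25% of the array and 1 fell, the iron exporter gene slc40a1, at 122 and 108 in mutants and 213 and 235 in wildtype larvae, with a log2 change of -0.96. This call was lost with median centring, with scaling on the controls, with a pseudocount of 16, and without mutant 1, mutant 2 or wildtype 3. The defining transcription factor gene mxtx2 read between 9.00 and 10.2 on the 4 arrays, within the dimmest 25%, and the sum of the list, most of it from afp4, was 908 and 1652 in mutants and 1675 and 1730 in wildtype larvae. Of 7 glial markers none passed by limma (1 at an unadjusted p under 0.05, against 11.9% of all probe sets). Their median log2 change was 0.12, or -0.03 without mutant 2. Of the 7 log2 changes 4 lay above 0 and 3 below, from 0.64 for the glial calcium-binding protein gene s100b and 0.30 for slc1a2b, a glutamate transporter, to -0.30 for the myelin gene mbpa.

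Several members are neighbours in the genome. In the GRCz12tu gene table apoa4b.2, apoeb, apoc1, apoc4, apoa2 and apoc2 follow each other with no other protein-coding gene between them, with apoa4b.1 close by, and apoa4a and apoea are adjacent in a second place. In the first cluster the dimmer apoa4b.2 probe set was called, and in the second neither gene was. Next to each other, apoa4b.2 had log2 changes of -1.86 and -0.63 and apoeb one of 0.62, while apoa4a and apoea had -1.05 and 0.57, the last being 0.00 without mutant 2. The remaining genes of the first cluster, apoc1, apoc4, apoa2, apoc2 and apoa4b.1, lay between -0.09 and 0.20. The probe sequences were not used here, so cross-hybridisation between paralogues such as the A-IV genes was not tested.

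Genes that load, process and take up lipoproteins did not pass the test on the deposited scale, but some did under other settings. With an intensity-dependent robust prior, dgat1a of the assembly list and lpla of the lipase list fell, and the receptor-list gene npc1, the transcription factor gene cebpb and the carrier gene clu rose. These last 3 also rose when dim probe sets were left out, and npc1 and lrp1aa, a receptor of the low density lipoprotein receptor family, rose without mutant 2. Among carriers, tfa fell without mutant 2 and ptgdsb.1 fell without wildtype 1. When the hybridisation controls set the scale, 5127 of all 15502 probe sets were called higher, and 98.2% of all calls were higher. There 3 of 13 assembly, 3 of 6 lipase and 4 of 10 receptor genes were called higher. So were 5 of 26 transcription factor genes, 4 of 14 carrier genes and 4 of 7 glial markers. Hepatocyte markers and macrophage and microglia markers were called in both directions, with 5 hepatocyte markers higher and 4 lower. In the list for assembly and secretion, 0 of 13 measured genes passed by limma, 3 had an unadjusted p under 0.05 and the median log2 change was -0.12. An unadjusted limma p under 0.05 was reached by 11.9% of all probe sets, the background for this count and for those of the lists below. The triglyceride-synthesis genes dgat1a and mogat2 had the smallest p, with log2 changes of -0.68 ± 0.13 and -0.80 ± 0.25 (SE). Of these dgat1a read 6.69 and 6.19 in mutants and 10.5 and 11.3 in wildtype larvae, in the dimmest 25%. The transfer protein gene mttp, needed to lipidate apolipoprotein B, read 15.0 and 21.0 in mutants and 19.1 and 22.9 in wildtype larvae, with a log2 change of -0.22 ± 0.20 (SE), and is named outside the rule for named genes.

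Of 6 plasma lipase, transfer protein and regulator genes none passed by limma, 2 had an unadjusted p under 0.05 and the median log2 change was -0.03. These were lpla, a gene for the lipase that apolipoprotein C-II activates, at 32.5 and 47.2 in mutants and 73.9 and 82.3 in wildtype larvae, and the endothelial lipase gene lipg, at 42.9 and 46.0 in mutants and 67.8 and 70.6 in wildtype larvae. Both had mutant arrays below wildtype arrays, with log2 changes of -0.98 ± 0.20 and -0.63 ± 0.13 (SE) and limma adjusted p-values of 0.11.

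Among 10 receptors and lipid transporters none passed by limma and 2 had an unadjusted p under 0.05, with a median log2 change of 0.03. The lysosomal cholesterol exporter gene npc1 read 139 and 90.8 in mutants and 48.6 and 47.1 in wildtype larvae, and its log2 change was 1.22 ± 0.22 (SE, limma adjusted p 0.068). The high density lipoprotein receptor gene scarb1 read 37.3 and 41.1 in mutants and 54.2 and 50.3 in wildtype larvae, and its log2 change was -0.41 ± 0.14 (SE, limma adjusted p 0.31).

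Of 26 transcription factor genes of liver and intestine none passed by limma, 6 had an unadjusted p under 0.05, 21 log2 changes lay below 0 and the median was -0.15. Of all probe sets 60.1% had a log2 change below 0, and the median of the list was 0.34 when scaled on the hybridisation controls. The 2 with the smallest p were cebpb, an acute-phase regulator, at 113 and 148 in mutants and 67.8 and 66.1 in wildtype larvae, and the liver pioneer factor gene foxa1, at 34.2 and 32.2 in mutants and 48.8 and 47.2 in wildtype larvae. Outside the rule for named genes, hnf4a, which activates many apolipoprotein genes in mammals, read 24.5 and 29.5 in mutants and 30.0 and 30.1 in wildtype larvae, and its log2 change was -0.15 ± 0.15 (SE).

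Of 14 lipid and serum carriers outside the family rule, 0 passed by limma, 3 had an unadjusted p under 0.05 and the median log2 change was -0.14. Clusterin, clu, also called apolipoprotein J, read 214 and 278 in mutants and 120 and 132 in wildtype larvae, with a log2 change of 0.95 ± 0.17 (SE) and a limma adjusted p of 0.071. The transferrin gene tfa, also a hepatocyte marker, read 775 and 1830 in mutants and 2955 and 3425 in wildtype larvae, with a log2 change of -1.42 ± 0.38 (SE) and a limma adjusted p of 0.20. Named outside the rule, the lipocalins apom and ptgdsb.1 had log2 changes of 0.63 ± 0.28 and -1.44 ± 0.47 (SE). For ptgdsb.1, as for apodb and apoa4a, wildtype 3 stood apart, at 507 and 493 in mutants and 788 and 2342 in wildtype larvae.

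**Figure D4:**
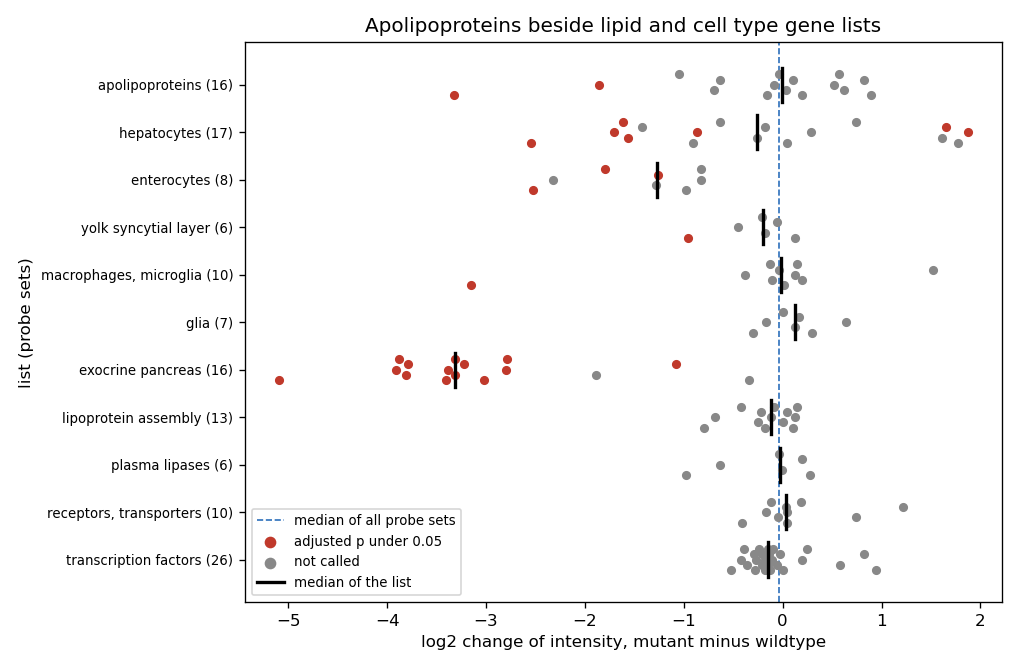
Log2 change of intensity (mutant minus wildtype) of each apolipoprotein probe set and of the genes in the lipid and cell type lists. The list of carriers outside the family rule is not drawn. Numbers of probe sets are in brackets, called ones are red and list medians are black bars. The apolipoproteins spread from -3.32 to 0.89 around a median of -0.01, near the dashed median of all probe sets, while exocrine pancreas and enterocyte genes lie to the left, with medians of -3.31 and -1.27.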

How the data were processed

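Per the submitters' processing notes, the authors made the deposited intensities, 1 per probe set of a 1-colour Affymetrix array, with RMA. Its version and settings are unknown here, and there were no detection calls to use. Of 15617 probe sets 115 array controls were left out. A platform annotation table gave exactly 1 gene symbol for 10795 of the rest. For 10711 of these the current symbol was taken through the Entrez ID, whether or not it differed.

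Log2(intensity + 1) values were fitted in R 4.3.3 with limma 3.58.1, with the functions lmFit and eBayes, 1 prior variance and no covariate, which left 2 residual and 4.04 prior degrees of freedom. The fit was tested on simulated data. Intervals are 95% from the moderated fit, and the number of arrays limits the precision. Of 229 symbols in 11 gene lists 127 were measured, each gene by its brightest probe set. Lists are described by counts and medians.

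The genes named were all members, up to 4 called genes of each list by smallest p (2 where none was called) and the 3 probe sets most like the members with the largest fall and rise. Outside this rule mttp, hnf4a, ptf1a, slc10a2, csf1ra, mxtx2, afp4, apom, ptgdsb.1, ctss2.1, lrp1aa, mbpa, agxta, hpxa and fga were named with their values known. Members and lists were chosen with earlier results of these data known. The alternatives changed the scaling, the filter on dim probe sets, the pseudocount, the prior, the threshold and the arrays used.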

Additional observations from a re-analysis of the deposited data

How the results depend on the processing

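The count of apolipoprotein probe sets that fell was 2 and became 1 with quantile normalization, with median centring and with a pseudocount of 16, and between 1 and 4 when any 1 array was left out. Leaving out mutant replicate 1 or mutant replicate 2 gave 1, and leaving out wildtype replicate 1 gave 4, with apoa4a and apodb added. The count that rose was 0 and became 4 with arrays scaled on the hybridisation controls, and it stayed 0 with each array left out. By gene, an alternative chosen after seeing the data, the count that fell was 1 by the brightest probe set, and 1 to 3 with any 1 array left out. By gene the count that rose was 4 with arrays scaled on the controls and 0 otherwise. Averaging the probe sets within each gene also gave 1 that fell. Over all 15502 probe sets, 102 fell in the main fit. This array-wide count was 81 with quantile normalization, 78 with median centring and 38 with a pseudocount of 16. With scaling on the controls 5127 of all probe sets rose, against 131 in the main fit. Leaving out an array leaves its group with 1 sample, which is then assumed to vary like the others. No called member changed sign in any alternative run. No paired analysis was possible because mutant and wildtype arrays share only replicate number 1. The dimmer apoba probe set, in the dimmest 25% of the array, limits what a change there can show. At an adjusted p under 0.10, 1 gene each would pass in the assembly, receptor, transcription factor and carrier lists (dgat1a, npc1, cebpb and clu), ctss2.1 would rise among macrophage markers and fga among hepatocyte markers, and 5 enterocyte genes would fall in place of 3.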
